A study of Homo sapiens with 16 samples.

Results

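The metallothionein genes MT1A, MT1B, MT1E, MT1F, MT1G, MT1H, MT1X and MT2A and the zinc exporter gene SLC30A1 were examined in Caco-2 cells, a human colon carcinoma line widely used as a model of the intestinal epithelium. Every non-control probe whose gene name on the array equalled one of these 9 names was taken, out of 27719 gene names. This gave 14 probes, 13 for the 8 metallothionein genes and 1 for SLC30A1, of 41000 on the array, and all 14 were tested. The study asked whether gliadin peptides change transcription in intestinal epithelial cells directly. All cells were undifferentiated, were harvested with trypsin and EDTA, and had been kept for 6 h in minimal essential medium with 1% fetal calf serum. The control group (MED-CTL) received nothing more, the p31-43 group the synthetic gliadin peptide of that name at 150 µg/ml, the PT group a blank pepsin and trypsin preparation made without substrate, and the PT-G group gliadin digested with both enzymes, which had been inactivated by heat. Each group had 4 arrays from 4 independent experiments with cells that differed slightly in passage, and this single cell line is the only model.

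Metallothioneins are small, cysteine-rich proteins that bind zinc and copper and buffer them in the cytosol. SLC30A1 (ZnT1) sits mainly in the plasma membrane and carries zinc out of the cell. When zinc rises in the cytosol, the transcription factor MTF1 binds short metal response elements upstream of these genes and raises their transcription, so both are widely used as readouts of free zinc; in enterocytes they belong to the handling of dietary zinc.

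The 250 bases before the start site are shown for the 5 of the 9 genes that the RefSeq promoter table (GRCh38.p14) holds, so that the sites of their common regulator can be seen. Capitals mark the core of the metal response element, searched as TGCACNC and TGCGCNC on both strands, and no 2 matches overlapped. The stretches are MT2A at chr16:56608334-56608583, MT1X at chr16:56682220-56682469, MT1H at chr16:56669564-56669813 and MT1B at chr16:56651636-56651885, all on the plus strand, and SLC30A1 at chr1:211579162-211579411 on the minus strand. Each is written 5′ to 3′ in the direction of its gene.
MT2A: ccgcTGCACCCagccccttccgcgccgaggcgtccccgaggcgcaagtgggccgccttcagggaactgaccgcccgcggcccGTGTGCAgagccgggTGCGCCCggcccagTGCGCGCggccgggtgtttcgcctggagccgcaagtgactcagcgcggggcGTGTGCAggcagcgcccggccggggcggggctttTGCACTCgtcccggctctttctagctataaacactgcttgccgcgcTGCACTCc
MT1X: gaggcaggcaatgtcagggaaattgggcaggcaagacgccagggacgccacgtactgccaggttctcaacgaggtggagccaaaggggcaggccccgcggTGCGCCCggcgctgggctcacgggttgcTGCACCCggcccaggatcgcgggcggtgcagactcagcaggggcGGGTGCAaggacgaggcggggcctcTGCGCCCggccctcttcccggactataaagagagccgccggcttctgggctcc
MT1H: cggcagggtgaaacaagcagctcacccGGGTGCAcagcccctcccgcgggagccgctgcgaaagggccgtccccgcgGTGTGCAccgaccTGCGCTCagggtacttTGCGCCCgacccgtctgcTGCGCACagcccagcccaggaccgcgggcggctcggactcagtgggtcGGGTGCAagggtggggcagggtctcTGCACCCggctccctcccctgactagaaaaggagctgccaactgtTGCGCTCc
MT1B: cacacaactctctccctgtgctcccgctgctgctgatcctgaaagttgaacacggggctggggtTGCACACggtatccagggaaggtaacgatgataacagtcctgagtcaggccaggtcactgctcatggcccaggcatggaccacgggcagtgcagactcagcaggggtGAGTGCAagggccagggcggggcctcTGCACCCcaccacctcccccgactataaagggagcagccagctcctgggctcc
SLC30A1: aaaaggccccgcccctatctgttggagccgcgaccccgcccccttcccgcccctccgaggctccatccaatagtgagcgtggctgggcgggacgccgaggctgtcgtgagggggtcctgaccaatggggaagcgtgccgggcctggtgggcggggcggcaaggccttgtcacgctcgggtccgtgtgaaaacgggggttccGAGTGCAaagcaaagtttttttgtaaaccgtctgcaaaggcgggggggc
The core was matched 8 times upstream of MT1H, 7 times upstream of MT2A, 4 times upstream of MT1X, 3 times upstream of MT1B and 1 time upstream of SLC30A1. Among all 35116 promoters of the table, 24.8% held at least 1 match, 1.58% at least 3, 0.37% at least 4 and 0.0313% at least 7. A match describes the letters in this window and is not a measured binding site. MT1A, MT1E, MT1F and MT1G have no entry.

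The 16 arrays lay on 5 slides. The file names carry 4 dates, each on 1 array of each condition, and arrays that share a date are called a run here. What these dates mark is not stated, and they need not be separate hybridisations, since 1 slide held arrays of 2 dates. Runs 1 and 2, the earlier pair, each filled 1 slide (A and B), whereas 1 array of run 3 (PT replicate 3) and 1 of run 4 (p31-43 replicate 4) shared slide D, apart from the other arrays of their runs on slides C and E. Median spot intensities lay between 153 and 410 over a median background of 48 to 65. All 11 epithelial marker genes were detected well above background on each of the 16 arrays, which did not go against the labelled line. KRT19, KRT8, CDH1 and VIL1 were among the brightest of them. The log2 intensity was lower for LGALS4 (6.64 to 7.96), KRT20 (7.58 to 8.68) and HNF4A (7.54 to 8.94). The fibroblast gene LUM (9.48 to 10.79) and the leukocyte gene CD14 (9.25 to 10.18) lay above LGALS4, KRT20 and HNF4A. Whether other cell types were present was not tested. The leukocyte gene PTPRC and the endothelial gene CDH5 were well above background on no array, although 4 of 6 fibroblast, 4 of 6 leukocyte and 2 of 4 endothelial genes passed that mark on all arrays.

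SLC30A1 was lower after both digests and did not differ detectably after the peptide. Its log2 intensity was 11.40, 11.50, 12.05 and 11.68 in MED-CTL cells of runs 1 to 4, and 11.54, 11.23, 12.19 and 11.66 after p31-43. It was 11.06, 10.82, 11.25 and 10.69 after PT and 10.82, 10.83, 11.37 and 10.94 after PT-G. All 8 arrays of PT and PT-G cells lay below all 4 MED-CTL arrays, the closest being PT-G in run 3 beside MED-CTL in run 1, while 2 of the 8 lay above the lowest p31-43 array.

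**Figure D1:**
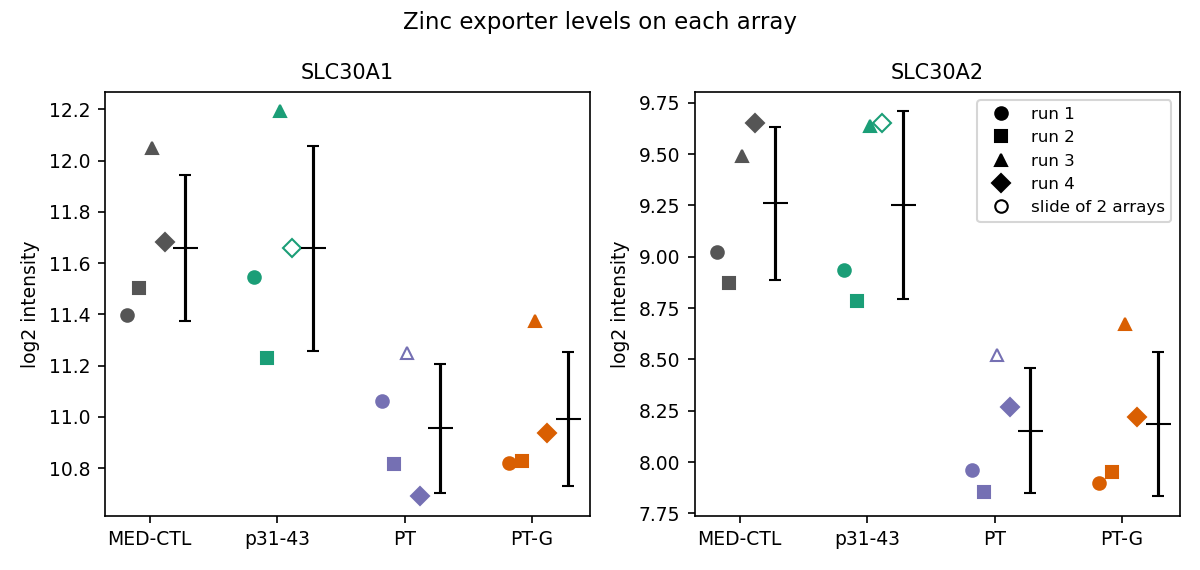
Log2 intensity (y axis) of the zinc exporter probes SLC30A1 and SLC30A2 on each of the 16 arrays, by condition (x axis). Marker shapes give the run, open markers the slide that held 2 arrays, and the horizontal tick and bar the mean ± SD of 4 arrays. The PT and PT-G arrays lie below the MED-CTL arrays in both panels, and run 3 is the highest in each SLC30A1 group.

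The group means of SLC30A1 were 11.66 ± 0.29 in MED-CTL, 11.66 ± 0.40 after p31-43, 10.99 ± 0.26 after PT-G and 10.96 ± 0.25 after PT (log2, SD, n = 4). With PT-G it was lower by 1.59-fold (log2 difference −0.67, SE 0.21, 95% interval −1.11 to −0.23), and with PT by 1.63-fold (−0.70, SE 0.21, −1.14 to −0.26). Both passed the study's nominal limma threshold of 0.01, as did 3.44% of all probes for PT-G and 3.64% for PT. Neither passed the adjustment over 40982 probes, with a limma adjusted p = 0.211 for PT-G and a limma adjusted p = 0.179 for PT. In bulk RNA, fewer cells of a kind and less RNA per cell cannot be told apart.

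Within runs the difference was of one sign. PT-G minus MED-CTL was −0.58, −0.68, −0.67 and −0.75 in runs 1 to 4, and PT minus MED-CTL −0.33, −0.69, −0.80 and −0.99. The SD of the 4 within-run differences was 0.07 for PT-G and 0.28 for PT. With the replicate block, that is with replicate number as a block in the model, the same PT-G difference had an SE of 0.10 and a limma adjusted p = 0.00427. When the block was instead the run, the limma adjusted p = 0.00356 for PT-G and adjusted p = 0.00283 for PT, and with the slide as a block they were 0.00303 (−0.67) and 0.00734 (−0.62), so that both passed the adjustment in these models. Without a block, the nominal PT-G call was lost with background-subtracted signal and under median scaling, at differences of −0.67 and −0.59. It was also lost without MED-CTL replicate 3 (−0.54) or 4 (−0.66), or without PT-G replicate 1 (−0.61), 2 (−0.61) or 4 (−0.65). The PT call was lost without MED-CTL replicate 3 (−0.57), PT replicate 2 (−0.66) or PT replicate 4 (−0.61), and both calls were lost when the later runs were fitted alone, at −0.71 and −0.90. In a model of all arrays with both run pairs, PT passed the nominal threshold in the later runs (−0.90) but not in the earlier (−0.51), and PT-G passed in neither (−0.71 and −0.63).

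The 8 arrays of digest-treated cells (PT-G and PT) were then set against the 8 arrays without digest (MED-CTL and p31-43). Here 6.46% of all probes passed the nominal threshold, and SLC30A1 fell by 0.69 (−0.69, SE 0.15, 1.61-fold, limma adjusted p = 0.0155). The call held in each of 17 alternatives and in each of 16 fits without 1 array. The difference was −0.54 (95% interval −0.92 to −0.15) in the earlier runs and −0.83 (−1.22 to −0.45) in the later runs, and the difference between run pairs, −0.30, had an interval that included 0 (−0.84 to 0.25, limma adjusted p = 1.00). In this model with both run pairs, the difference in the earlier runs missed the nominal threshold, which it passed when these runs were fitted alone.

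For p31-43, 0.388% of all probes passed the nominal threshold, and SLC30A1 did not (difference 0.00, 95% interval −0.44 to 0.44, limma adjusted p = 1.00). Between PT-G and PT, 0.0903% of all probes passed, and the SLC30A1 values differed by 0.03 (95% interval −0.41 to 0.48, limma adjusted p = 1.00). The comparisons of PT-G, PT and p31-43 share their MED-CTL arrays. Condition accounted for 62.7% of the sum of squares of SLC30A1 over the 16 arrays and the run for 30.2%.

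**Figure D2:**
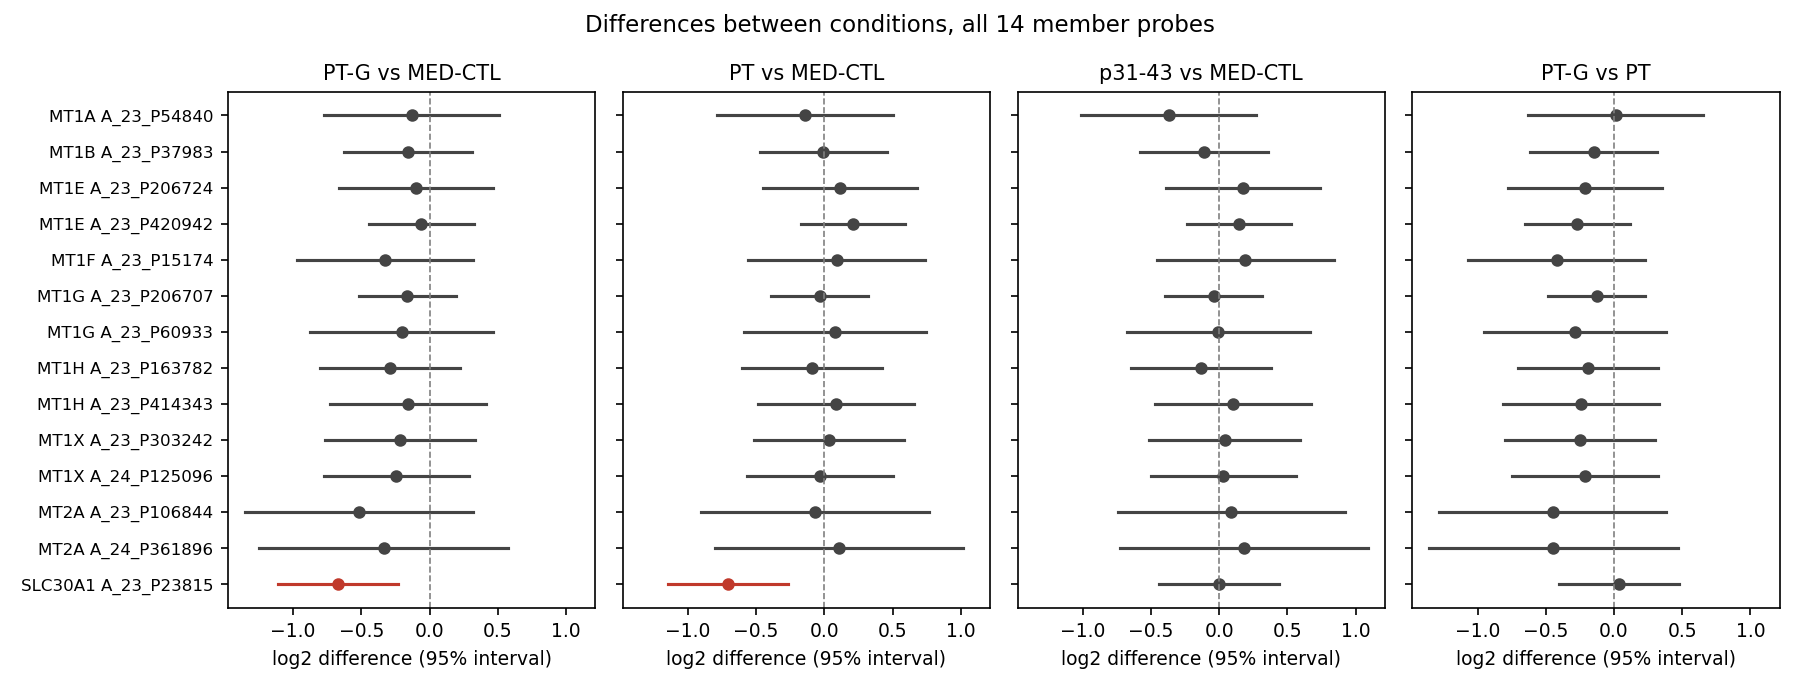
Log2 differences (x axis) of the 14 member probes (y axis) in 4 comparisons of 4 arrays against 4, with 95% intervals from limma. Red marks the probes past the nominal threshold of 0.01: SLC30A1 at −0.67 after PT-G and −0.70 after PT, and no metallothionein probe.

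None of the 13 metallothionein probes passed the nominal threshold with PT-G, PT or p31-43 against MED-CTL, or between PT-G and PT. In these comparisons 3.44%, 3.64%, 0.388% and 0.0903% of all probes passed. At such shares an absence of calls among 13 probes says little about the family. None of the 13 reached an unadjusted limma p under 0.05 either, and the share of all probes at that level was not counted. PT-G and PT were not each tested against p31-43. After PT-G all 13 values were below MED-CTL, by −0.52 to −0.06, with a median of −0.20, beside a median of −0.01 and 52.1% of values below 0 over all probes. Single arrays moved this tally: without PT-G replicate 3 10 of 13 were below MED-CTL with a median of −0.05, without MED-CTL replicate 4 11 of 13 with a median of −0.09, and in the earlier runs alone 10 of 13 with a median of −0.06. The lowest limma adjusted p among the 13 was 0.949, and the probes of 1 family are not independent measurements. After PT 7 values were above and 6 below MED-CTL, with a median of 0.03 and a range of −0.14 to 0.21. After p31-43 8 were above and 5 below, with a median of 0.04 and a range of −0.37 to 0.19. Between PT-G and PT 12 of 13 values were below 0, with a median of −0.24 and a range of −0.45 to 0.01, and all the 95% intervals included 0. This tally reversed in the earlier runs alone, where 12 of 13 were above 0 with a median of 0.16, and without run 3 8 of 13 were above 0 with a median of 0.01. With the slide as a block the median was −0.04, and without PT-G replicate 3 it was −0.07.

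MT2A, an isoform made in most tissues, is covered by 2 probes. On A_23_P106844 its log2 intensity was 11.88, 11.17, 10.58 and 10.97 in MED-CTL cells of runs 1 to 4, and 11.61, 10.65, 9.86 and 10.43 after PT-G. It was 11.25, 10.55, 11.21 and 11.32 after PT, and 12.01, 11.28, 10.42 and 11.25 after p31-43. The groups overlapped throughout, although PT-G was below MED-CTL in each of the 4 runs. The PT-G difference was −0.52 with a 95% interval of −1.35 to 0.32 (limma adjusted p = 0.949). The other MT2A probe, A_24_P361896, gave −0.34 for PT-G, 0.11 for PT and 0.18 for p31-43, with intervals that all include 0. On that probe PT-G was above MED-CTL in run 1 (0.06) and below it in runs 2 to 4.

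**Figure D3:**
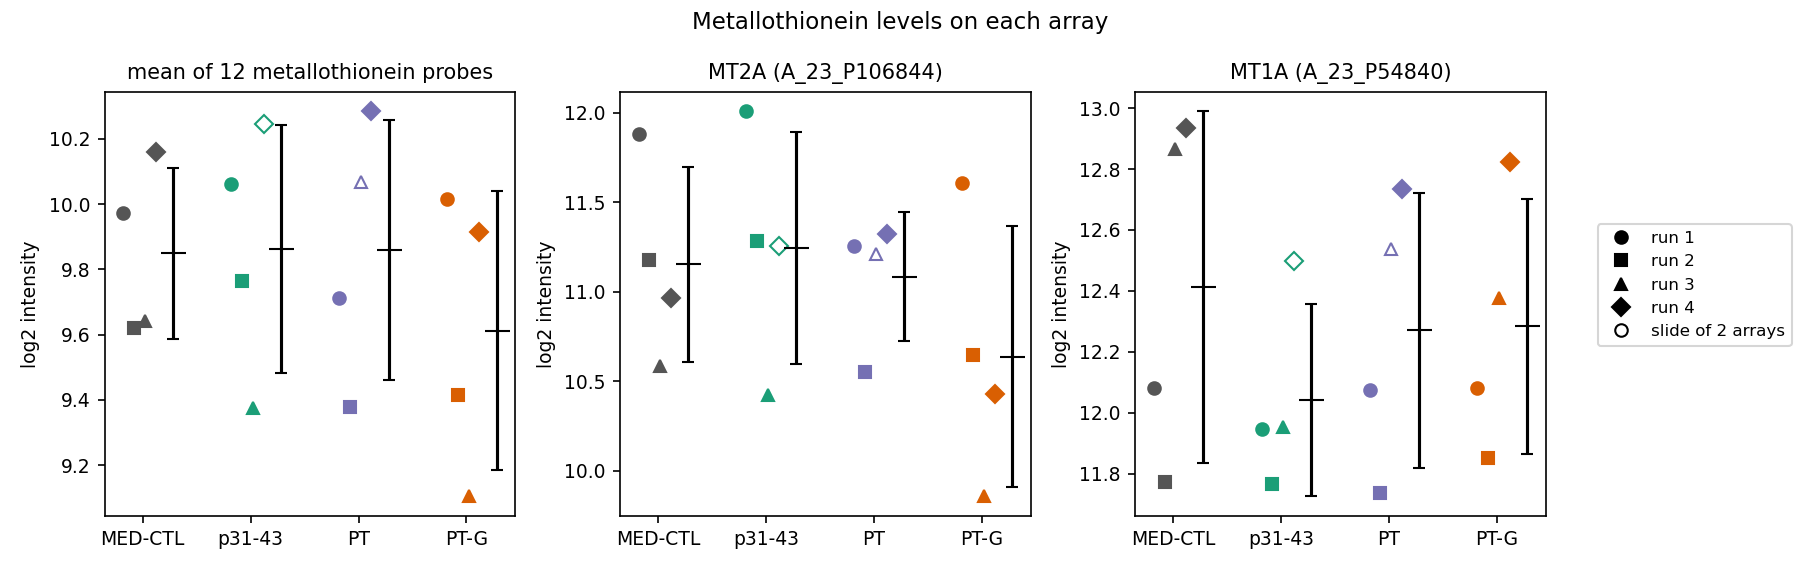
Log2 intensity (y axis) by condition (x axis) of the mean of the 12 metallothionein probes well above background on all arrays, of MT2A and of MT1A. Marker shapes give the run, open markers the slide that held 2 arrays, and the tick and bar the mean ± SD of 4 arrays. The 4 conditions overlap in each panel, and PT in run 3 (10.07) stands above the other run 3 arrays of the mean (9.10 to 9.64).

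MT1F had log2 intensities of 9.42, 9.29, 8.85 and 9.55 in MED-CTL cells of runs 1 to 4 and of 9.43, 8.90, 8.13 and 9.35 after PT-G, a difference of −0.33 (95% interval −0.98 to 0.32, limma adjusted p = 1.00). The PT-G and MED-CTL arrays of MT1F overlapped, and run 3 was the lowest in both groups. For MT1X, MT1H, MT1G, MT1E and MT1B, also zinc-binding members of the family, the PT-G values lay between −0.29 and −0.06. One of the 2 MT1E probes, A_23_P420942, was well above background on only 2 of 16 arrays, so that it bears little on these values. The intervals for PT-G were widest for the MT2A probes.

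The sign of the PT values differed between runs. Over the 12 well-detected metallothionein probes, PT minus MED-CTL was −0.26 in run 1 and −0.24 in run 2, with 12 of 12 probes below 0 in each. It was 0.42 in run 3 and 0.12 in run 4, with 2 of 12 and 1 of 12 below 0. In run 3 the PT array lay on slide D and the MED-CTL array on slide C, whereas in run 4 both lay on slide E. In the later runs alone 12 of 13 PT values were above 0, with a median of 0.30. With the slide as a block, 12 of 13 PT values were below 0, with a median of −0.19, and without run 3 also 12 of 13, with a median of −0.11. PT-G minus MED-CTL was 0.04, −0.20, −0.54 and −0.25 in runs 1 to 4, all within 1 slide in each run. No test of the difference in treatment response between run pairs passed the adjustment for any member probe.

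For both digests against both groups without, none of the 13 metallothionein probes was called, with a median of −0.09, and 11 of 13 were below 0. With the slide as a block, however, 3 of 13 were called, beside 16.5% of all probes under that model. These were MT1F (−0.35, SE 0.09, limma adjusted p = 0.0235) and both MT2A probes, at −0.43 (SE 0.13, limma adjusted p = 0.0463) on A_23_P106844 and −0.37 (SE 0.11, adjusted p = 0.0397) on A_24_P361896. The run as a block gave no metallothionein call for the digests and 1 for p31-43, where MT1A was lower (−0.37, SE 0.12, limma adjusted p = 0.685), beside 1.38% of all probes.

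The metallothioneins varied more between runs than between conditions. In the median of the 12 well-detected probes, 60.3% of the sum of squares lay between runs and 9.47% between conditions, beside 55.3% and 14.1% over all 24702 probes well above background and measured on all arrays. Between the later and earlier pairs of runs, 24.2% of all probes passed the nominal threshold, and 1 of the 13 metallothionein probes did. This was MT1A, which was higher in the later runs by 0.68 (SE 0.11, 1.60-fold, limma adjusted p = 0.000679). Its means in runs 1 to 4 were 12.05, 11.78, 12.43 and 12.75. The model counts the 8 arrays of each pair as separate, although only the runs differ in this respect. Its SE and p-values therefore do not measure the spread between runs. The same holds for the other later-against-earlier tests, and more so without run 3, when the later side is 1 run. Its level in MED-CTL cells was 12.08, 11.77, 12.86 and 12.93 in runs 1 to 4, and after PT-G 12.08, 11.85, 12.38 and 12.82. Every earlier MT1A array was below every later one in the MED-CTL, PT and PT-G groups. The p31-43 array of run 3, at 11.95, was level with that of run 1 (11.95), above that of run 2 (11.77) and below that of run 4 (12.50).

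MT2A differed from MT1A in this, with −0.55 (SE 0.24, limma adjusted p = 0.116) on A_23_P106844 and −0.28 (SE 0.30) on A_24_P361896 between the later and the earlier runs. SLC30A1 was 0.33 higher in the later runs (SE 0.12, limma adjusted p = 0.0572), with its highest values in run 3. Neither MT2A probe nor SLC30A1 passed the nominal threshold. The pairs of runs differ in slides and may differ in cell passage, which cannot be told apart. In run 3, the 3 arrays on slide C had metallothionein means of 9.10 to 9.64. Without run 3, 12 of the 13 probes were higher in the later run than in the earlier ones, with a median of 0.45, and 6 passed the nominal threshold. These 6 included both MT1H probes at 0.53 and 0.60 and 1 of the 2 MT1X probes at 0.52, and 30.9% of all probes were called in that fit.

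**Figure D4:**
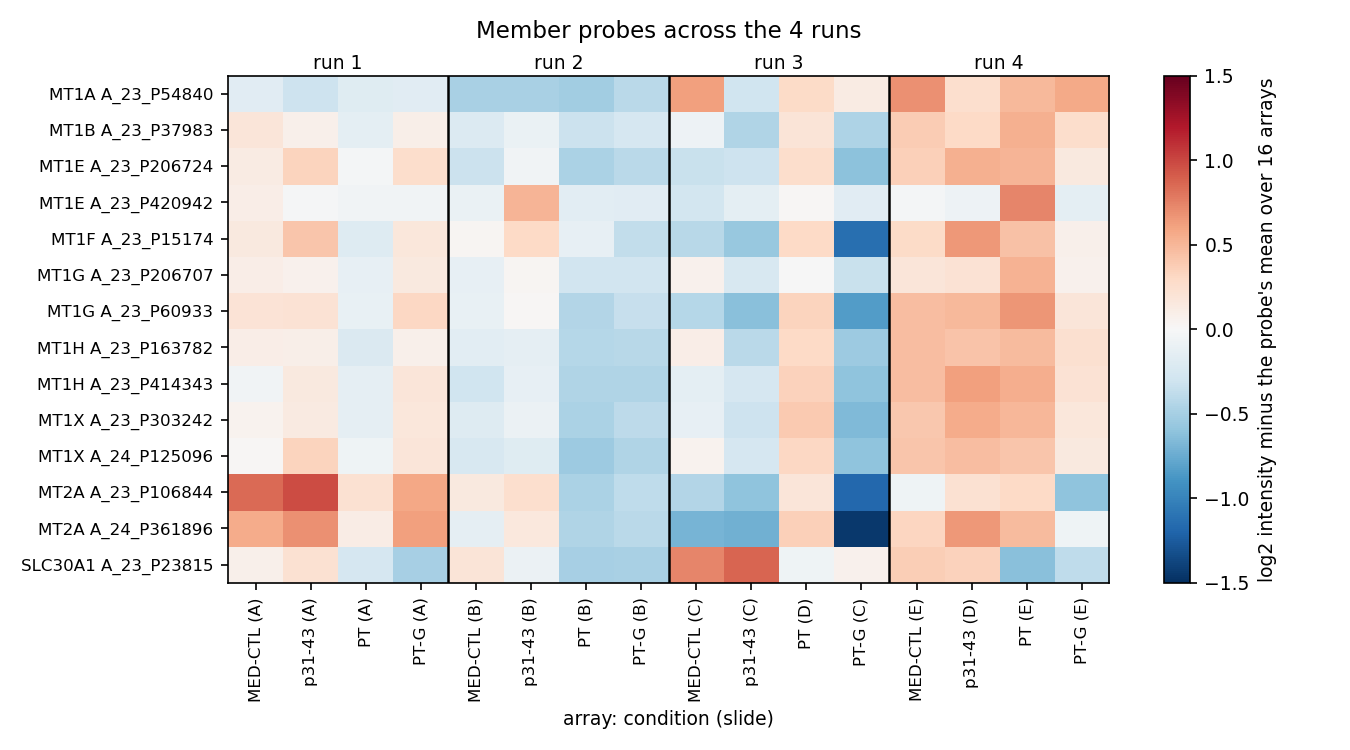
Log2 intensity of each member probe minus its mean over 16 arrays (colour; rows are probes), with arrays ordered by run and then by condition, and the slide letter in parentheses (x axis). Most metallothionein rows share the same pattern of high and low arrays, with run 4 high and slide C low, whereas the SLC30A1 row is lower in the PT and PT-G columns than in the other columns of each run.

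Most metallothionein probes were high and low on the same arrays. Over the 16 arrays, which share runs and slides, the median Pearson r between 2 of the 12 well-detected probes was 0.86 over 66 pairs, and 0.89 after the mean of each run was removed. The range was wide (−0.20 to 0.99), with MT1A and MT2A on A_23_P106844 the least alike pair. MT1A had a median r of 0.55 with the others, and 0.15 after the run means were removed. The r between the metallothionein probes and SLC30A1 had a median of −0.11 and a range of −0.26 to 0.16.

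The genes are close paralogues, and how much of this likeness is cross-hybridisation was not tested. By the accessions the array files give for each probe, the MT1A probe also lists MT1M, the probe A_23_P163782 of MT1H also lists MT1M, A_23_P414343 of MT1H also lists MT1X and MT1L, and A_23_P303242 of MT1X also lists MT1H and MT1A. The values of these 4 probes are therefore uncertain as to the gene. The probes of MT1B, MT1F, MT1G and MT2A, A_24_P125096 of MT1X, A_23_P206724 of MT1E and that of SLC30A1 list 1 gene each, and A_23_P420942 of MT1E none.

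The profiles most like the mean of the metallothionein probes, by Pearson r over 16 arrays among 24702 probes, were those of MT1L (0.98) and MRPL39 (0.87), a protein of the mitochondrial ribosome. VGLL1, IL32 and MAP3K3 followed, each with an r of 0.86. MT1L is described on the array as a metallothionein isoform, and A_23_P414343 of MT1H, a part of the mean profile, also lists it. SLC30A1 was most like SESN1 (0.97), a sestrin of the stress response, CHST5 (0.96), a sulfotransferase, MULK (0.96), a lipid kinase, POLE3 (0.96), a subunit of DNA polymerase epsilon, and ZNF623 (0.95). SESN1 itself differed by −0.64 between PT-G and MED-CTL and by −0.71 between PT and MED-CTL.

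Beside the members, 58 listed genes of metal handling and of stress were measured, and the calls concerned few of them. Of the 58, 11 were metal and heat stress genes, among them heat shock chaperones. With PT-G 5 of the 58 were called, 4 higher and 1 lower, and with PT also 4 higher and 1 lower. With p31-43 none was called. The shares of all probes called were 3.44%, 3.64% and 0.388%. The stress genes gave 2 of the 4 higher calls with PT-G and 3 of the 4 with PT. The lower one was SLC30A2 (ZnT2), the only one of 9 other zinc exporters that was called, which moves zinc into vesicles. On its brighter probe the log2 intensity was 9.03, 8.87, 9.49 and 9.65 in MED-CTL cells of runs 1 to 4, and 7.90, 7.95, 8.67 and 8.22 after PT-G. It was 7.96, 7.85, 8.52 and 8.27 after PT and 8.94, 8.78, 9.64 and 9.65 after p31-43. The PT and PT-G arrays lay below all arrays of the other groups.

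SLC30A2 fell by 1.07 with PT-G (log2 difference −1.07, SE 0.25, limma adjusted p = 0.0681) and by 1.11 with PT (−1.11, SE 0.25, adjusted p = 0.0593). For both digests against no digest it fell by 1.09 (−1.09, SE 0.18, limma adjusted p = 0.0028). Its second probe was well above background on 13 arrays and fell by 0.55 with PT-G and 0.51 with PT, both past the nominal threshold. Upstream of SLC30A2 the metal response core was matched 3 times. None of the 14 zinc importers was called in any comparison of conditions that was fitted, with medians of 0.02 for PT-G and 0.07 for PT. Nor was any of the 6 genes listed as other metallothioneins and MTF1. MT3 gave −0.20 with PT-G and −0.14 with PT, and MT1L −0.20 and 0.12. MTF1, the zinc sensor, gave 0.30 with PT-G and 0.65 with PT (SE 0.36 each).

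The iron and copper genes were 18. Of these CYBRD1, the duodenal iron reductase, was higher with PT-G by 0.53 (SE 0.11, limma adjusted p = 0.0326) on the brighter of its 2 probes, while the second gave 0.10 and was not called. With PT the brighter probe was not called, although it lay above MED-CTL in each run. Its log2 intensity was 8.20, 8.26, 8.34 and 8.23 with PT in runs 1 to 4, beside 7.80, 7.94, 8.22 and 7.82 in MED-CTL. SLC31A2, a copper transporter, was higher by 0.41 with PT-G and 0.52 with PT (limma adjusted p = 0.110 and adjusted p = 0.0385). SLC40A1, the iron exporter ferroportin, was lower for both digests against no digest by 0.56 (−0.56, SE 0.18, limma adjusted p = 0.144). The remaining iron and copper genes, among them FTH1, FTL and TFRC, were not called with PT-G or PT.

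Of the 11 metal and heat stress genes, HSPA6, an inducible chaperone of the HSP70 family, rose with PT-G by a log2 difference of 1.37 (SE 0.21, limma adjusted p = 0.00725), and with PT by 1.53 (SE 0.21, adjusted p = 0.00379). HSPA1A rose by 0.60 and 0.56, though its near-identical copy HSPA1B can share the signal and its other 2 probes were not called. DNAJB1, a co-chaperone, rose by 0.66 with PT. With PT-G it was not called, although it lay above MED-CTL in each run. Its log2 intensity was 12.89, 12.73, 12.21 and 12.83 with PT-G in runs 1 to 4, beside 12.27, 12.34, 12.01 and 12.32 in MED-CTL. After p31-43 DNAJB1 also lay above MED-CTL in each run, barely so in run 2, at 12.80, 12.34, 12.27 and 12.38. HMOX1, which responds to heavy metals and oxidants, gave 0.01 with PT-G and was not called. GCLM, which helps make glutathione, was the 1 gene called between PT-G and PT (0.30, limma adjusted p = 1.00).

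Of the 11 epithelial markers, KRT20, a keratin of maturing enterocytes, was called with the digests: it was 0.63 higher with PT-G (limma adjusted p = 0.0251) and 0.50 higher with PT (adjusted p = 0.0884), and its part in the SLC30A1 and SLC30A2 results was not tested. The mean log2 level of the epithelial markers ranged from 13.38 to 13.59 on the MED-CTL arrays and from 13.28 to 13.64 on the PT-G arrays. No fibroblast, leukocyte or endothelial marker was called with PT-G or PT, but 1 of 6 fibroblast markers, the collagen gene COL3A1, was called for both digests against no digest (−0.45, SE 0.13, limma adjusted p = 0.0713), and its part in the SLC30A1 result was not tested.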

How the data were processed

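Total RNA of 16 Caco-2 samples was hybridised to 1-colour Agilent arrays. The authors deposited spot intensity values from Feature Extraction 9.5.3.1 on a linear scale (median and mean foreground, background, background-subtracted signal) together with other columns that mark controls, outliers, saturated spots and spots well above background. The authors also deposited log2 values, which equal the median foreground normalised with quantiles over all 45015 spots within 5e-09. The files name no genome build.

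Log2 median foreground intensities of non-control spots were quantile-normalised without background correction, as in the study's methods, after 1639 control spots were left out of each array. The 1774 spots marked as outliers were left out, spots of a probe averaged, and the 40982 probes with at least 3 unmarked arrays in each group fitted in a single 4-group model, using limma 3.58.1 under R 4.3.3 (2-sided moderated tests, 12 residual and 1.88 prior degrees of freedom). The threshold was the study's nominal p under 0.01, with Benjamini-Hochberg adjustment over all probes. The filter and re-annotation of probes in the study's methods were not used. Precision is limited by the number of arrays. The model was tested on simulated data. Promoter sequences came from RefSeq (GRCh38.p14), and 5 of 9 genes matched.

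The members, the lists and the tests were chosen with earlier results of these data known. Named were all member probes, genes of the metal lists called in a comparison with MED-CTL with up to 3 others per list, and the 5 named genes most like each profile. A listed gene was taken by its brightest probe. SLC40A1, GCLM, KRT20 and COL3A1 fall outside this rule and were named after their values were seen. Deviations from the group means correlated between arrays of the same replicate number by 0.395 to 0.857 for PT-G with MED-CTL. For p31-43 with MED-CTL they did so by 0.262 to 0.707, and for PT with MED-CTL by −0.01 to 0.41. Between arrays of the same run the ranges were 0.628 to 0.857, 0.538 to 0.707 and −0.01 to 0.62. Arrays of either kind also share the shift between earlier and later runs, so these values cannot decide which arrays are paired. Numbers came from the labels, and the runs from dates in file names, whose meaning is not stated, by which MED-CTL replicates 1 and 2 belong to runs 2 and 1. Alternatives tried were the background-subtracted signal, normexp, mean foreground, median scaling, the deposited table, a filter on dim probes, marked spots kept, blocks for replicate number, run, slide or run pair, each run pair alone, array weights, a model restricted to the arrays under comparison, a variance trend with intensity, and omission of 1 array at a time. Leaving out run 3 or the slide of 2 arrays was chosen after seeing the data.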

Additional observations from a re-analysis of the deposited data

Results flagged for a closer look

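The level of MT2A on A_23_P106844 in PT replicate 2 stood apart from the other 3 PT arrays. Its log2 intensity was 10.55, against 11.21 for the nearest array of the group, and the gap took up 0.849 of the group's range. It was the only such sample among 56 groups of 4 arrays tested (14 probes in 4 conditions), and chance alone flags about 1 in 20 groups. PT replicate 2 belongs to run 2, whose PT-G array read 10.65 on the same probe. None of 70 tests of a difference in treatment response between the earlier and the later runs passed the adjustment.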

How the results depend on the processing

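SLC30A1 was lower with PT-G and with PT in every alternative and every fit without 1 array. With PT-G it missed the nominal threshold with background-subtracted signal (−0.67), median scaling (−0.59) and only the later runs (−0.71), and without 1 array at a time it ranged from −0.80 to −0.54, with the call lost in 5 of 16 fits. With PT it missed the threshold with only the later runs (−0.90), and without 1 array it ranged from −0.80 to −0.57, with 3 of 16 lost. The causes were not tested, beyond the fewer arrays of some fits. For the digests against no digest none of the 17 alternatives ended the call, though in a model with both run pairs the earlier runs missed it (−0.54).

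No metallothionein probe was called with PT-G or PT in any alternative. With the run as a block 1 was called for p31-43 (1.38% of all probes), and with the slide as a block 3 for the digests (16.5%). Without run 3 the later runs gave 6 (30.9%), against 1 to 2 without 1 array (21.1% to 25.0%). Median scaling moved the median of all probes with PT to −0.11. Of 2542 metallothionein values under alternatives, 10 were newly called and none reversed a called direction, while 193 of 2505 uncalled values changed sign.

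Among the 58 listed genes of metal handling and stress, 5 were called with PT-G, 5 with PT, 0 with p31-43, 1 between PT-G and PT and 8 for the digests (3.44%, 3.64%, 0.388%, 0.0903% and 6.46% of all probes). With the replicate block these counts became 12, 11, 3 and 2 for the first 4 comparisons (7.59%, 8.49%, 1.05% and 0.232% of all probes), and blocking by run gave 12, 13, 2 and 2 (9.16%, 10.3%, 1.38% and 0.317%). The run pair as a block gave 8, 8 and 1 for the first 3 (5.85%, 6.06% and 0.786%). The slide as a block gave 14, 12 and 6 for these 3 and 15 for the digests (12.2%, 10.6%, 3.73% and 16.5%), and array weights 9, 8 and 1 (7.43%, 6.15% and 1.40%). Only the earlier runs gave 8 with PT, 1 with p31-43 and 0 between PT-G and PT (6.93%, 2.19% and 0.212% of all probes). Only the later runs gave 3 with PT-G, 5 for the digests and 0 between PT-G and PT (1.22%, 2.50% and 0.540%). The PT-G against PT count was also 0 with background-subtracted signal, normexp, mean foreground, median scaling, a filter on dim probes, only the groups compared, an intensity trend, without run 3 and without the slide of 2 arrays, and 0 to 1 without 1 array. In these fits 0.00718% to 0.207% of all probes were called between PT-G and PT. The p31-43 count was 1 with median scaling (0.710% of all probes) and 0 to 2 without 1 array (0.212% to 0.803%). Whether replicate numbers pair the samples was not settled. With PT the replicate block left SLC30A1 at −0.70 (limma adjusted p = 0.00356), and this block ended no SLC30A1 call.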
